A study of Drosophila melanogaster with 20 samples.

Results

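Gadd45, grim, Dronc, Irbp, Traf4 and egr are fly genes of cell death, of the tumour necrosis factor (TNF) and stress kinase pathway and of DNA damage, and their signals were described in dissected brains of Drosophila melanogaster. They were taken as the probe sets whose symbol in the platform annotation is exactly one of the 6 names, which gave 8 probe sets of the 18952 on the array, for 6 of 11982 genes with a probe set of 1 symbol. Traf4 and egr had 2 probe sets each and the other 4 genes had 1 each. The 6 genes were selected on their log2 changes between genotypes and ages in an earlier analysis of the same arrays. Their own differences are therefore given as sizes with standard errors and as passing or not passing the threshold, and no p-value is given for them.

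Brains came from 4 groups of flies of natural ageing, namely miR-34 null flies at 20 d, miR-34 null flies at 3 d, wild-type flies at 20 d and wild-type flies at 3 d. The titles call the null line 0110 and the wild-type line 5905, and total RNA of each sample was hybridised to 1 Affymetrix Drosophila 2 array, with 5 arrays per group and 20 in all. MicroRNAs pair with messenger RNAs and repress them, and miR-34 is one that the adult fly brain expresses. Each genotype carries 1 line label, so loss of miR-34 and other differences between the lines cannot be told apart. Whether the repeats of a group are separate pools of flies is not said in the labels, and the spread behind each test may thus be technical only. Precision is limited by the 5 arrays of each group.

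In flies, apoptosis is held back by inhibitor of apoptosis proteins (IAPs) such as Diap1, and is released when the antagonists grim, rpr, hid and skl bind them. The initiator caspase Dronc is then free to join the apoptosome with Dark and to activate executioner caspases. The TNF ligand Eiger, encoded by egr, acts through the receptors wgn and grnd, TRAF adapters and a kinase cascade that ends in the Jun kinase bsk, whose output includes the phosphatase puc. GADD45 proteins are induced by stress and in mammals bind a kinase upstream of p38 and Jun kinases. Irbp is the fly Ku70 protein, which with Ku80 binds the ends of broken DNA before they are joined.

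Values are signals in the array software's units, scaled by the authors, with a trimmed mean of 150.002 units averaged over the 20 arrays. Differences are on the scale of log2(signal + 16), which understates changes of low signals, and a probe set is called where the adjusted p of limma's moderated test (Benjamini-Hochberg) lay under 0.05. Median signals of the arrays ranged from 18.4 to 24.0 units. Of the 9806 probe sets that passed the expression filter, the share called was 45.5% for the genotypes at 20 d, 33.8% at 3 d, 58.0% for 20 d against 3 d in null, 55.6% for 20 d against 3 d in wild type and 17.0% for the interaction, which is the change with age in null minus the change with age in wild type. Arrays of 1 group correlated at 0.989 to 0.997 and arrays of different groups at 0.940 to 0.971. Centring each array on its median shifted the median log2 change of all probe sets to -0.14 for ageing in wild type, against 0.02 without centring, and to 0.13 for the interaction, against 0.01. With it the percentage of calls that were higher was 67.0, against 46.0 without it, for null at 20 d, and 29.4 against 45.6 at 3 d. For ageing in wild type it was 24.4, or 41.2 after quantile normalization, against 55.3, and for the interaction 82.5 against 44.8.

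All 13 measured neuron markers and all 9 measured glia markers had group means above the array median in all 4 groups. With age 1 neuron marker rose and 7 fell in null, with a median log2 change of -0.30, and none rose and 9 fell in wild type, with a median of -0.31. Of the glia markers 1 rose and 5 fell in null (median -0.30), and 2 rose and 5 fell in wild type (median -0.25). Over all tested probe sets 32.0% rose and 26.0% fell with age in null, and 30.7% rose and 24.8% fell in wild type. Neuron markers summed to 9361 to 11060 and 11398 to 12576 units in 20 d and 3 d null, against 9811 to 10688 and 11786 to 12550 in 20 d and 3 d wild type. Glia markers summed to 8067 to 8619 and 9549 to 10439 units in 20 d and 3 d null, against 8236 to 8932 and 9814 to 10221 in 20 d and 3 d wild type. The sums of both lists were thus lower at 20 d than at 3 d in each genotype, without overlap. Markers of other tissues also moved with the groups. Summed over 10 of the 12 listed genes, gut markers reached 1037 to 1223 units in 20 d null, 2921 to 3016 in 3 d null, 1109 to 1191 in 20 d wild type and 818.2 to 913.3 in 3 d wild type. The 9 haemocyte markers summed to 1696 to 1781 units in 20 d null and 1136 to 1258 in 3 d null, and to 1753 to 1860 in 20 d wild type and 1141 to 1238 in 3 d wild type. Photoreceptor markers, 7 of the 14 listed, summed to 4447 to 4952 and 4473 to 4999 units in 20 d and 3 d null, against 6772 to 7291 and 6580 to 6826 in 20 d and 3 d wild type. The sum leaves out ninaE, ninaC, norpA, Rh3, Rh4, Rh5 and Rh6, which had no probe set of 1 symbol. Fat body markers, 9 of the 10 listed, summed to 2962 to 3262 and 2344 to 2463 units in 20 d and 3 d null, against 4795 to 4960 and 3162 to 3386 in 20 d and 3 d wild type. Muscle markers, 11 of the 14 listed, summed to 1127 to 1217 and 1367 to 1518 units in 20 d and 3 d null, against 1065 to 1169 and 797.1 to 846.7 in 20 d and 3 d wild type. Of the tested gut markers 7 of 8 were called higher in null at 3 d, beside 15.4% of all tested probe sets. Of the haemocyte markers 8 of 9 rose with age in each genotype. Mean signals of 7, 1, 8 and 7 of the 10 gut markers lay below the array median in 20 d null, 3 d null, 20 d wild type and 3 d wild type. The part of these cells and tissues in the values below was not tested.

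At 20 d, 5 of the 6 genes had a higher signal in null than in wild type and egr a lower one, and all 6 were called, beside 20.9% of all tested probe sets called higher and 24.6% called lower. At 3 d, Dronc and egr were called higher in null and Irbp lower, beside 15.4% and 18.4%. With age, Gadd45, grim, Dronc, Irbp and Traf4 were called higher in null and egr lower, beside 32.0% and 26.0%. In wild type Gadd45, Irbp, Traf4 and egr were called higher with age and none of the 6 lower, beside 30.7% and 24.8%. The 5 genes and egr were also called for the interaction, higher and lower, beside 7.61% and 9.38%. Ranges of the 5 arrays did not overlap between null and wild type at 20 d for Gadd45, grim, Dronc and Irbp (higher) and egr (lower), beside 15.3% and 17.8% of all tested probe sets, and at 3 d for Dronc and egr (both higher), beside 11.5% and 12.8%. The ages did not overlap in null for Gadd45, Dronc, Irbp and Traf4 (higher) and egr (lower), beside 23.1% and 16.4%, nor in wild type for Gadd45, Irbp, Traf4 and egr (all higher), beside 24.8% and 19.5%. These counts were fixed by the choice of the genes, and nothing is read from them. The 5 comparisons share arrays and are not independent of each other. In whole brains, fewer cells of a type and less RNA per cell cannot be told apart.

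**Figure D1:**
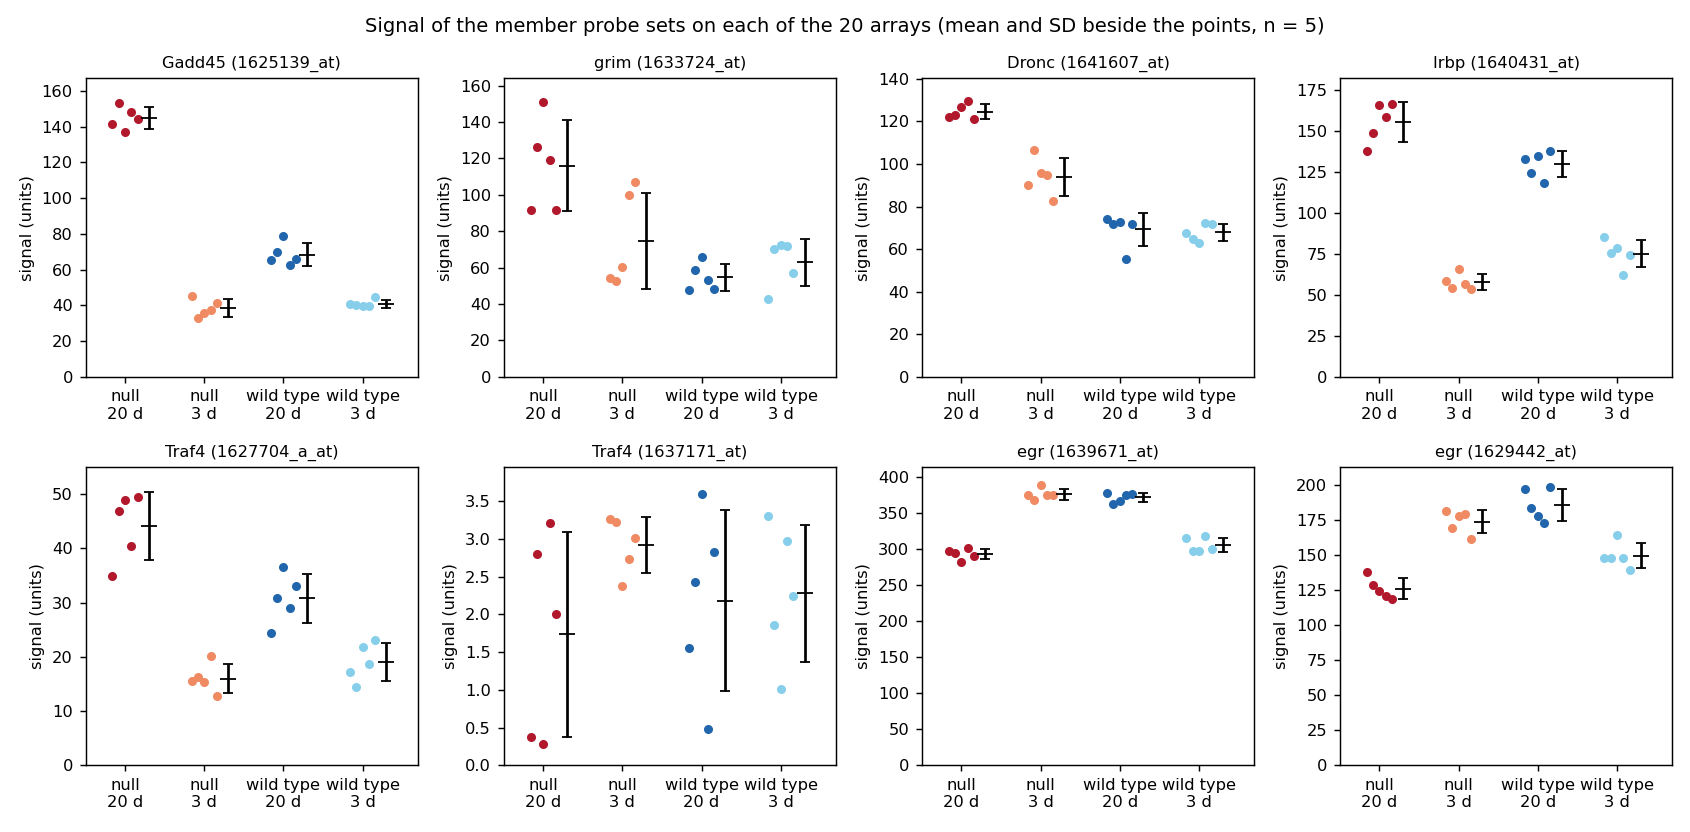
Signal in array units (vertical axes, starting at 0) of the 8 probe sets of the 6 genes, with 1 point per array and the mean ± SD (n = 5) beside the points, for null and wild-type brains at 20 d and 3 d. Gadd45 stands highest in 20 d null, at 137.0 to 153.1 units, both egr probe sets have their lowest means there, and the second Traf4 probe set stays at or below 3.60 units on all arrays.

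The IAP antagonist grim was the most variable of the 7 tested probe sets among the 20 d null arrays, with a coefficient of variation of 21.6%. Its signals were 91.8, 126.1, 150.8, 119.4 and 91.6 units in 20 d null and 54.0, 52.4, 60.3, 99.9 and 106.8 units in 3 d null. They were 47.8, 58.6, 65.6, 53.1 and 48.4 units in 20 d wild type and 43.0, 70.0, 72.3, 71.9 and 57.2 units in 3 d wild type. Every 20 d null array lay above every 20 d wild-type array, while 2 of the 3 d null arrays stood at 99.9 and 106.8 units and the other 3 within the range of 3 d wild type. Means were 116 ± 25.0 and 74.7 ± 26.4 units in 20 d and 3 d null, against 54.7 ± 7.47 and 62.9 ± 12.7 units in 20 d and 3 d wild type (SD, n = 5 each). The log2 change was 0.89 ± 0.17 (SE) for null against wild type at 20 d, the 97th highest of 9806, and 0.17 at 3 d, which was not called. With age it was 0.57 in null, where the ranges of the ages overlapped, and -0.15 in wild type, which was not called.

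The interaction of grim, 0.71 ± 0.24, was called. It was no longer called without the filter on low signals or in 14 of the 20 fits that each left out 1 array, with values from 0.62 to 0.84 in those 20 fits. In the order of group means, 20 d null, 3 d null, 3 d wild type and 20 d wild type, each neighbouring pair overlapped.

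Dronc, the initiator caspase, was higher in null at both ages. It had 122.0, 123.0, 126.9, 129.8 and 121.3 units in 20 d null and 90.0, 106.6, 95.6, 94.9 and 82.5 units in 3 d null. In wild type it had 74.3, 71.7, 72.8, 55.4 and 71.9 units at 20 d and 67.7, 64.7, 62.8, 72.3 and 71.7 units at 3 d. The null arrays did not overlap with the wild-type arrays at either age, the null ages did not overlap with each other, and the wild-type ages did. Mean signals were 125 ± 3.62 and 93.9 ± 8.80 units in 20 d and 3 d null, against 69.2 ± 7.78 and 67.8 ± 4.19 units in 20 d and 3 d wild type (SD, n = 5 each). Null exceeded wild type by 0.73 ± 0.063 (SE) on the log2 scale at 20 d and 0.39 at 3 d, and the change with age was 0.36 in null. In wild type the change with age was 0.02 and was not called, but it was -0.17 and called after quantile normalization and -0.14 after median centring. The interaction was 0.34 ± 0.089.

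Other tested genes that act beside grim and Dronc did not share 1 direction. From lists that leave out the 6 genes, 4 of 7 IAP antagonists and inhibitors were tested. The genes rpr, hid and Diap1 had no probe set of 1 symbol in the platform annotation, so nothing is known of them here. At 20 d 1 was higher and 1 lower in null, beside 20.9% and 24.6% of all tested probe sets. The antagonist skl reached 140 ± 12.004 units in 20 d null and 141 ± 9.55 units in 3 d null, against 98.0 ± 8.98 units in 20 d wild type and 151 ± 6.92 units in 3 d wild type (SD, n = 5 each). Its log2 change was 0.45 ± 0.059 (SE) for null against wild type at 20 d (adjusted p = 1.08e-06 by limma) and -0.55 with age in wild type (adjusted p = 3.33e-08 by limma). With age in null it was -0.02 and was not called, and the interaction was 0.54 (adjusted p = 3.7e-05 by limma). Det, the fly relative of survivin, was slightly lower in null at both ages, with changes of -0.16 at 20 d and -0.17 at 3 d, and the 20 d call was lost after median centring. It rose with age by 0.58 in null and by 0.57 in wild type. The inhibitor Diap2 fell with age by 0.19 in null and by 0.16 in wild type, where the call was lost after quantile normalization.

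Among caspases, apoptosome and Bcl-2 genes, 10 of 13 were tested, and Drice, Decay and Cyt-c-d had no probe set of 1 symbol. In 20 d null 2 were higher and 4 lower than in 20 d wild type, beside 20.9% and 24.6% of all tested probe sets. At 3 d 2 were higher and 3 lower in null, beside 15.4% and 18.4%. The Bcl-2 family genes Buffy and Debcl were the lowest at 20 d. Buffy had 101 ± 4.31 units in 20 d null and 118 ± 11.6 units in 3 d null, against 163 ± 5.19 units in 20 d wild type and 128 ± 12.2 units in 3 d wild type (SD, n = 5 each). It fell by 0.62 on the log2 scale in null against wild type at 20 d (adjusted p = 6.63e-09 by limma) and rose by 0.32 with age in wild type, with an interaction of -0.52 (adjusted p = 5.9e-05 by limma). Debcl changed by -0.46 at 20 d (adjusted p = 1.72e-07 by limma), and its interaction of -0.31 was no longer called after median centring, at -0.19. The caspase Damm was higher in null at both ages, by 0.30 at 20 d and 0.27 at 3 d. Dredd, a caspase of the Imd immune pathway, and the adapter imd rose with age in null, by 0.43 and 0.40, and in wild type, by 0.31 and 0.44.

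The TNF ligand gene egr moved against the other 5 genes at 20 d and with both of its probe sets. Its brighter probe set had 296.6, 294.4, 281.9, 300.9 and 289.7 units in 20 d null and 374.1, 367.4, 388.2, 374.7 and 374.0 units in 3 d null. In wild type it had 377.6, 362.5, 366.1, 374.3 and 375.6 units at 20 d and 315.3, 296.8, 297.6, 317.4 and 300.1 units at 3 d. The signal was thus low in the old null and the young wild-type arrays and high in the young null and the old wild-type arrays, with no overlap between the low and the high groups.

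Means of that probe set were 293 ± 7.26 and 376 ± 7.61 units in 20 d and 3 d null, against 371 ± 6.57 and 305 ± 10.1 units in 20 d and 3 d wild type (SD, n = 5 each). Between the genotypes the log2 change was -0.33 ± 0.031 (SE) at 20 d and 0.29 at 3 d. With age it was -0.34 in null and 0.27 in wild type, or 0.11 there after median centring, and the interaction was -0.61 ± 0.044.

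The second egr probe set had 138.4, 128.5, 124.7, 121.0 and 118.5 units in 20 d null and 181.3, 169.2, 178.0, 179.4 and 161.6 units in 3 d null. In wild type it had 197.1, 183.6, 178.1, 173.0 and 198.7 units at 20 d and 148.3, 148.0, 164.1, 147.9 and 139.8 units at 3 d. All old null arrays lay below all others here, while those of the brighter probe set overlapped with 3 d wild type. The genotypes overlapped at 3 d and not at 20 d, the ages overlapped in neither genotype, and 3 d null also overlapped with 20 d wild type. The log2 changes were -0.51 ± 0.050 (SE) and 0.20 between the genotypes at 20 d and 3 d, -0.42 and 0.29 with age in null and wild type (0.13 in wild type after median centring), and -0.70 ± 0.070 for the interaction. Over the 20 arrays the 2 probe sets correlated at Pearson's r = 0.882, which the group means carry. Within groups the deviations correlated at 0.142.

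Traf4, an adapter of the TRAF family, had a low signal. Its brighter probe set had 34.8, 46.9, 49.0, 40.5 and 49.5 units in 20 d null and 15.5, 16.2, 15.5, 20.1 and 12.7 units in 3 d null. In wild type it had 24.5, 30.8, 36.5, 29.0 and 33.1 units at 20 d and 17.2, 14.5, 21.9, 18.7 and 23.1 units at 3 d. It lay above the array median on all 5 arrays of each 20 d group, on none of the 3 d null arrays and on 3 of the 3 d wild-type arrays. The ages did not overlap in either genotype, and the genotypes overlapped at both ages. Mean signals were 44.1 ± 6.33 and 16.02 ± 2.67 units in 20 d and 3 d null, against 30.8 ± 4.50 and 19.1 ± 3.50 units in 20 d and 3 d wild type (SD, n = 5 each).

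The log2 change of Traf4 was 0.36 ± 0.084 (SE) between the genotypes at 20 d and -0.13 at 3 d, which was not called. With age it was 0.91 in null and 0.41 in wild type, and the interaction was 0.49 ± 0.12. At this low signal the pseudocount matters, and the change with age in null ranged from 0.43 to 1.41 with pseudocounts of 64 and 1. The second Traf4 probe set stayed between 0.28 and 3.60 units, below the array median on every array, and was not tested.

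In the rest of the TNF, Jun kinase and p38 pathway, 18 of 22 listed genes were tested. Tak1, Mmp1 and p38b had no probe set of 1 symbol. At 20 d 8 were higher and 4 lower in null, beside 20.9% and 24.6% of all tested probe sets. At 3 d 3 were higher and 4 lower, beside 15.4% and 18.4%. The largest differences were those of wnd, a kinase that acts upstream of Jun kinase and is known for its role in injured axons. It had 273 ± 28.5 and 180 ± 22.4 units in 20 d and 3 d null, against 496 ± 15.7 and 532 ± 24.8 units in 20 d and 3 d wild type (SD, n = 5 each). Its log2 change was -0.83 at 20 d (adjusted p = 5.09e-10 by limma) and -1.49 at 3 d (adjusted p = 1.12e-14 by limma), with an interaction of 0.66 (adjusted p = 1.6e-05 by limma). The p38 kinase gene p38a had 93.8 ± 7.86 units in 20 d null and 43.8 ± 3.31 units in 3 d null, against 69.4 ± 6.09 units in 20 d wild type and 46.6 ± 3.08 units in 3 d wild type. It was higher by 0.36 in null at 20 d (adjusted p = 2.14e-05 by limma), and rose with age by 0.88 in null and 0.45 in wild type, with an interaction of 0.43 (adjusted p = 0.000516 by limma).

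POSH, a scaffold of the Jun kinase cascade, was higher in null at 20 d by 0.33, and msn, the kinase that TRAF adapters bind, was higher at 20 d by 0.20 and at 3 d by 0.41. Tab2, a partner of the kinase Tak1, rose with age by 0.63 in null and 0.79 in wild type. Ask1, another kinase of the cascade, was lower in null at both ages, with changes of -0.28 at 20 d and -0.24 at 3 d. The genes wgn, bsk and puc of the pathway of egr were added by name after their values were seen. The receptor gene wgn was higher in null at 20 d by 0.13 (adjusted p = 0.00477 by limma), and the Jun kinase bsk was at -0.06 there and not called. At 3 d wgn was at 0.04 and not called, and bsk was lower in null, at -0.11 (adjusted p = 0.027 by limma). The phosphatase gene puc, a read-out of Jun kinase activity in flies, was above wild type in null by 0.23 at 20 d (adjusted p = 5.35e-06 by limma) and 0.15 at 3 d (adjusted p = 0.00126 by limma).

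Gadd45 had the largest interaction of the 6 genes. Its signals were 141.4, 153.1, 137.0, 148.2 and 144.3 units in 20 d null and 45.3, 32.9, 35.7, 37.2 and 41.1 units in 3 d null. They were 65.4, 69.6, 78.5, 62.4 and 66.1 units in 20 d wild type and 40.9, 40.0, 39.5, 39.4 and 44.8 units in 3 d wild type. All 20 d null arrays stood above all others, 20 d wild type stood above both 3 d groups, and the 3 d groups overlapped. Means were 145 ± 6.20 and 38.4 ± 4.87 units in 20 d and 3 d null, against 68.4 ± 6.22 and 40.9 ± 2.22 units in 20 d and 3 d wild type (SD, n = 5 each). The log2 change was 0.93 ± 0.060 (SE) for null against wild type at 20 d, the 84th highest of 9806, and -0.07 at 3 d, which was not called. With age it was 1.57 in null and 0.57 in wild type, and the interaction was 1.00 ± 0.085.

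Irbp, the Ku70 gene, changed mainly with age. It had 138.1, 148.5, 165.9, 158.6 and 166.6 units in 20 d null and 58.3, 54.3, 66.0, 56.5 and 53.7 units in 3 d null. In wild type it had 133.0, 124.7, 134.6, 118.5 and 137.6 units at 20 d and 85.2, 75.8, 78.9, 62.0 and 74.2 units at 3 d. Old and young arrays were far apart in both genotypes, the lowest 20 d null array lay just above the highest 20 d wild-type array, and the 3 d groups overlapped. Means were 156 ± 12.2 and 57.8 ± 4.94 units in 20 d and 3 d null, against 130 ± 7.89 and 75.2 ± 8.52 units in 20 d and 3 d wild type (SD, n = 5 each). The log2 change with age was 1.22 in null and 0.68 in wild type. For null against wild type it was 0.23 ± 0.065 (SE) at 20 d and -0.30 at 3 d, of opposite sign, and the interaction was 0.54 ± 0.092.

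**Figure D2:**
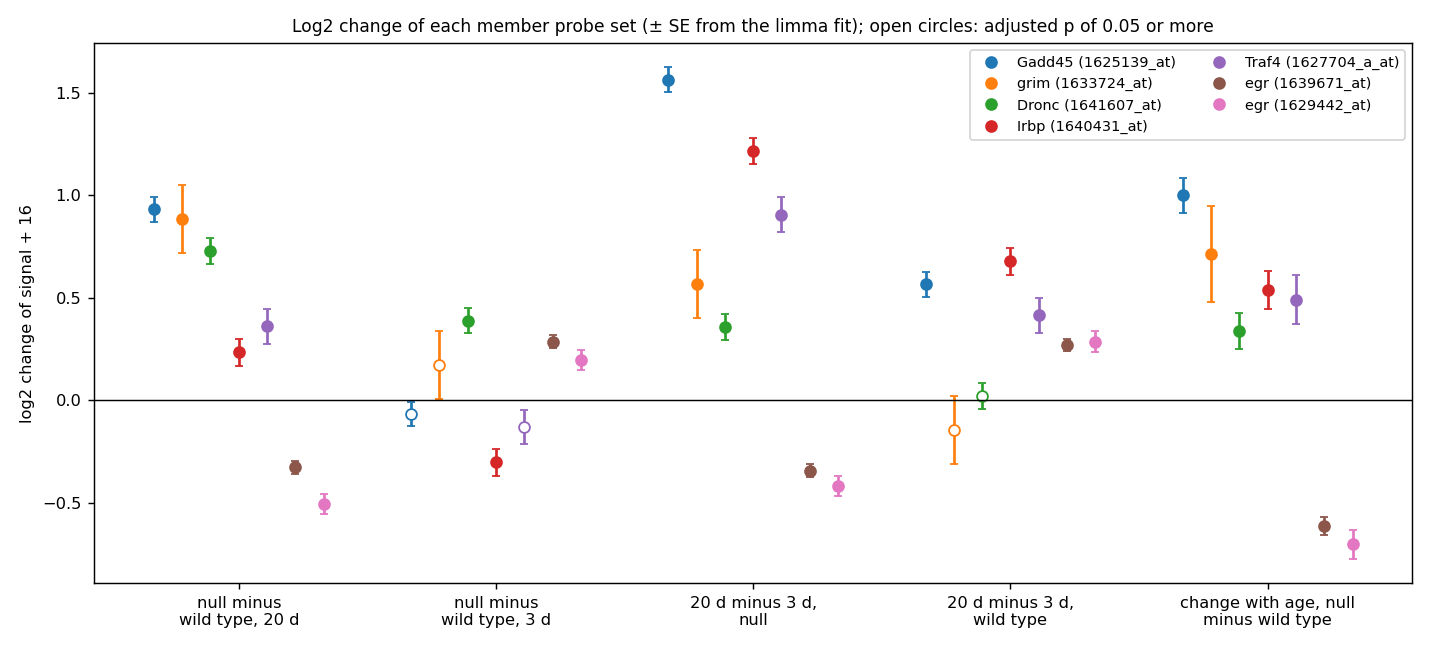
Log2 change of signal + 16 (vertical axis, ± SE from the limma fit) of the 7 tested probe sets of the 6 genes in the 5 comparisons. Filled circles passed the threshold and open circles did not, and in the interaction Gadd45 is highest at 1.00 while the egr probe sets lie at -0.61 and -0.70.

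Ku80, the partner of Irbp in the end-binding dimer, had 108 ± 12.2 units in 20 d null and 54.2 ± 9.43 units in 3 d null, against 107 ± 2.52 units in 20 d wild type and 73.7 ± 5.38 units in 3 d wild type (SD, n = 5 each). It was lower in null at 3 d, with a log2 change of -0.36 (adjusted p = 0.000422 by limma) and rose with age by 0.82 in null and 0.46 in wild type, with an interaction of 0.36 (adjusted p = 0.0176 by limma). At 20 d its difference of 0.00 was not called. Irbp18, a separate gene that encodes a leucine zipper protein, had 428 ± 7.77 and 226 ± 10.8 units in 20 d and 3 d null, against 320 ± 16.9 and 233 ± 5.03 units in 20 d and 3 d wild type. It rose with age by 0.87 in null (adjusted p = 1.73e-15 by limma), with an interaction of 0.44 (adjusted p = 9.9e-07 by limma).

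Of 55 listed genes of the DNA damage checkpoint and of repair, 43 had a probe set of 1 symbol and 35 were tested. At 20 d 9 were higher and 8 lower in null, beside 20.9% and 24.6% of all tested probe sets. After median centring or quantile normalization 11 were higher and 6 lower. At 3 d 4 were higher and 9 lower, beside 15.4% and 18.4%, or 3 and 16 after median centring. With age 20 rose and 6 fell in null, beside 32.0% and 26.0%. In wild type 17 rose and 5 fell, beside 30.7% and 24.8%, but after median centring 7 rose and 8 fell. The highest at 20 d were agt, which removes alkyl groups from guanine, the helicase gene Rtel1 and the nuclease gene mre11, which acts at broken ends. agt had 135 ± 6.90 and 62.0 ± 4.62 units in 20 d and 3 d null, against 90.6 ± 8.37 and 50.8 ± 5.37 units in 20 d and 3 d wild type (SD, n = 5 each), a log2 change of 0.51 at 20 d (adjusted p = 3.43e-07 by limma). mre11 had 406 ± 10.1 and 341 ± 10.1 units in 20 d and 3 d null, against 296 ± 1.91 and 292 ± 9.78 units in 20 d and 3 d wild type, a change of 0.43 at 20 d (adjusted p = 5.61e-11 by limma). Rtel1 was higher by 0.45 at 20 d and 0.29 at 3 d.

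At 3 d the lowest repair genes in null were tefu, the fly ATM kinase, at -0.46, the excision repair gene Ercc1 at -0.40 and Ku80. The end-processing gene rad50 rose with age by 0.83 in null and 0.67 in wild type, and lok, the fly Chk2 kinase, rose by 0.39 in null and 0.61 in wild type. p53, named after its value was seen, was lower in null, with changes of -0.31 at 20 d (adjusted p = 8.94e-05 by limma) and -0.17 at 3 d (adjusted p = 0.0254 by limma). Of 9 listed genes of the p53-dependent radiation response, 4 were tested, and all 4 also stand in another of the lists. In this list rpr, hid, Xrp1 and RnrS had no probe set of 1 symbol. At 20 d skl and mre11 were higher in null and none of the 4 was lower, beside 20.9% and 24.6% of all tested probe sets. RnrL, the large subunit of ribonucleotide reductase, rose with age by 0.49 in null and 0.29 in wild type, where the call was lost after quantile normalization and after median centring.

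Of 10 listed engulfment genes 7 were tested. At 20 d 3 were higher and none lower in null, beside 20.9% and 24.6% of all tested probe sets. Those higher were the kinase gene Shark by 0.19, the adapter gene ced-6 by 0.14 and prtp by 0.13. The calls of Shark and ced-6 were lost in some of the alternatives. drpr, the main engulfment receptor of fly glia, had a log2 change of 0.00 at 20 d and -0.14 at 3 d, where it was called. With age 3 of the list rose and none fell in null, beside 32.0% and 26.0% of all tested probe sets. In wild type 2 rose and 2 fell, beside 30.7% and 24.8%. Shark rose by 0.32 in null and 0.34 in wild type, and ced-6 by 0.29 in null and 0.33 in wild type. The receptor gene drpr had a change of -0.14 with age in wild type, where it was called. The scavenger receptor gene crq rose by 0.26 in null, and its change of 0.17 in wild type was not called.

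Over the 6 lists, 84 of 107 listed genes had a probe set of 1 symbol and 74 were tested. For null against wild type at 20 d 23 were higher and 17 lower, beside 20.9% and 24.6% of all tested probe sets. The median log2 change was 0.01, beside -0.01 over all probe sets. After median centring 28 were higher and 12 lower. At 3 d 11 were higher and 18 lower, beside 15.4% and 18.4%, with a median of -0.05 beside -0.01. After median centring 6 were higher and 26 lower there. With age 40 rose and 11 fell in null, beside 32.0% and 26.0%, with a median of 0.15 beside 0.02. In wild type 34 rose and 12 fell, beside 30.7% and 24.8%, with a median of 0.11 beside 0.02. After median centring, however, 16 rose and 24 fell in wild type. For the interaction 12 were higher and 4 lower, beside 7.61% and 9.38%, with a median of 0.06 beside 0.01. After median centring 35 were higher and 1 lower for it.

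**Figure D3:**
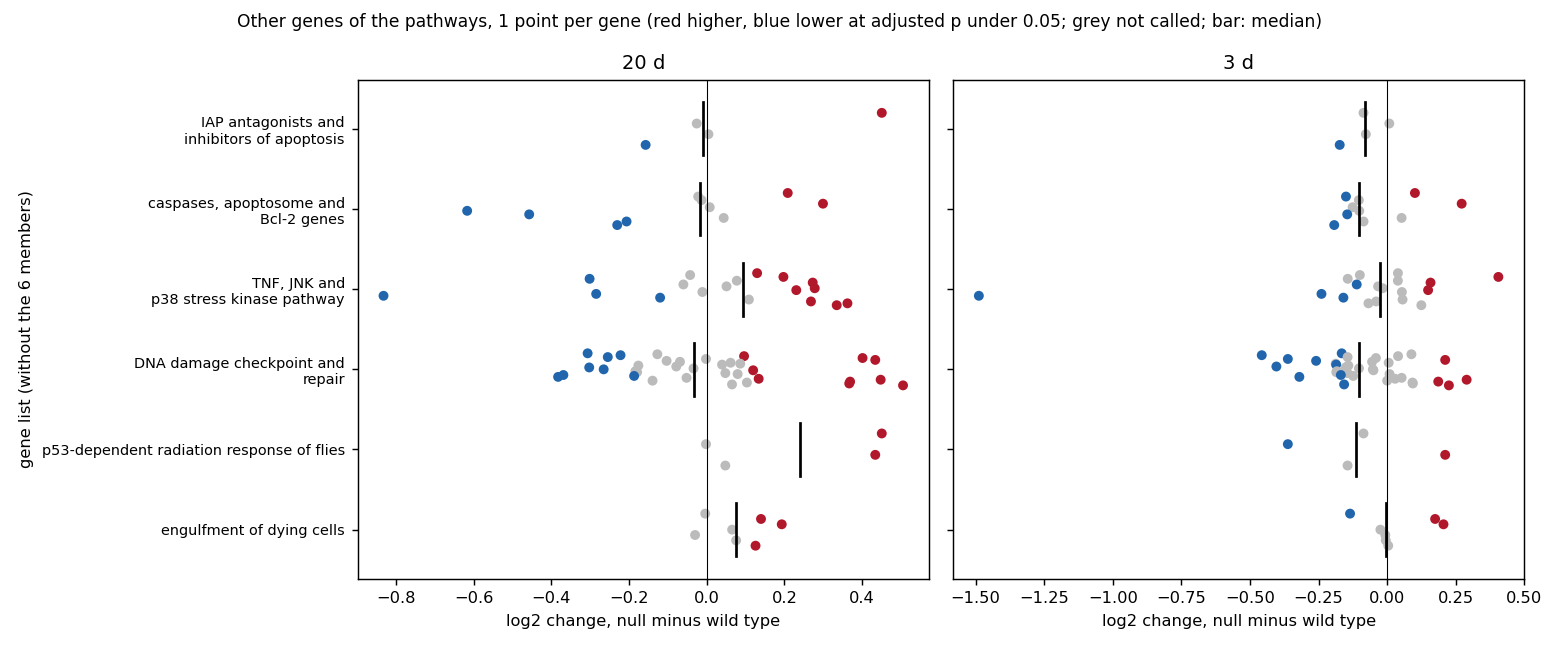
Log2 change of signal + 16, null minus wild type (horizontal axes), at 20 d on the left and at 3 d on the right, with 1 point per tested gene of each of the 6 lists, the 6 genes left out. Red points were higher and blue points lower at an adjusted p under 0.05, grey points were not called and bars mark list medians. wnd lies farthest to the left in both panels, at -0.83 and -1.49.

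**Figure D4:**
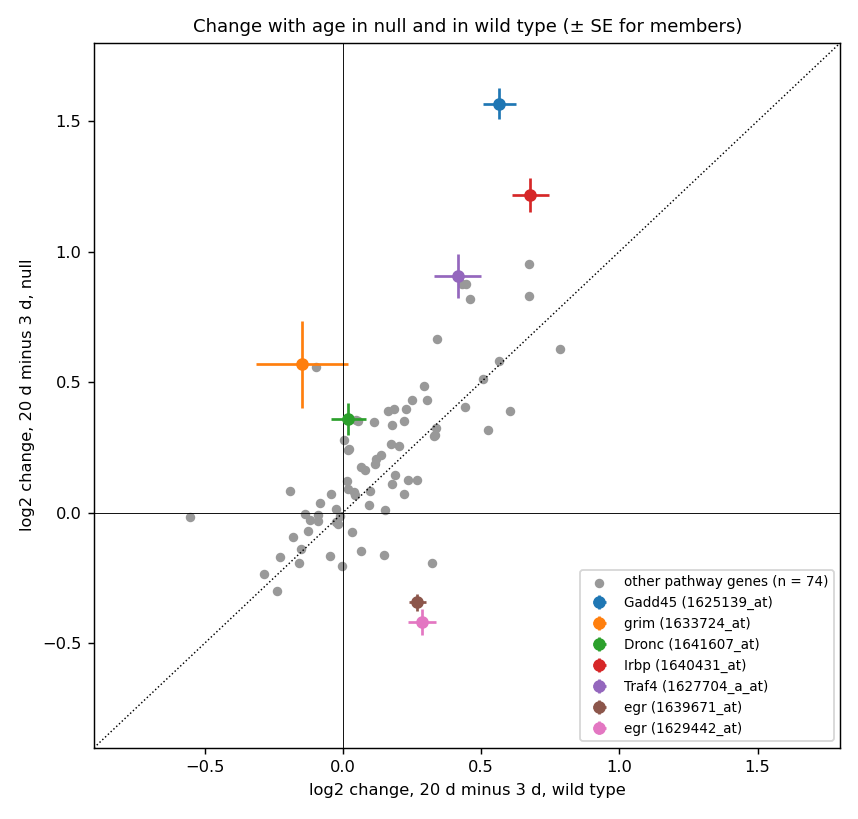
Change with age, 20 d minus 3 d, on the log2 scale in wild type (horizontal axis) and in null (vertical axis) for the tested probe sets of the 6 genes (± SE) and 74 other pathway genes (grey). The dotted line marks equal change. Gadd45, Irbp, Traf4, Dronc and grim lie above it and both egr probe sets below it, at 0.27 and 0.29 in wild type and -0.34 and -0.42 in null.

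The genes whose log2 signal correlated most with each of the 6 over the 20 arrays were taken from 7703 other genes. The points share their group means, so r measures likeness of those means together with likeness of the deviations from them, and no p is given. Correlations of the deviations, given below, were thus partly fixed by the choice of the genes on r. Gadd45 was most like Lime, Tsp42Er and eIF2beta, at r = 0.985, 0.975 and 0.974, and 217 genes had r over 0.9 with it. Lime lay above the array median only on the 20 d null arrays and passed the filter through that group alone. Its means were 49.65 units there, 16.5 in 20 d wild type, and 4.49 and 3.89 in 3 d null and 3 d wild type. The place of Lime was thus partly fixed by the filter, and nothing is read from it. Irbp was most like CG12868, Gnmt, an enzyme that uses S-adenosylmethionine, and CG9691, at 0.974, 0.969 and 0.968, with 314 genes over 0.9. Traf4 was most like CG8468, Marf1 and the small heat shock gene Hsp26, at 0.947, 0.946 and 0.941. Marf1 was below the array median at 3 d, with means of 10.5 units in null and 10.8 in wild type. Dronc was most like CG6567, CG1103 and gb, at 0.978, 0.969 and 0.953, with 35 genes over 0.9.

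egr was most like CG13321, CG7567 and CG5399, at 0.984, 0.978 and 0.973, with 19 genes over 0.9. These 3 had a similar order of groups over a wider range, which rests in part on low signals. In 20 d null the means of CG13321 and CG7567 lay below the array medians, and in 3 d wild type that of CG13321 did. CG13321 had means of 2.74 and 35.6 units in 20 d and 3 d null, against 35.1 and 5.66 units in 20 d and 3 d wild type. CG5399 had 31.5 ± 1.47 and 396 ± 19.2 units in 20 d and 3 d null, against 287 ± 19.0 and 66.0 ± 5.01 units in 20 d and 3 d wild type (SD, n = 5 each). CG7567 had 9.24 ± 1.33 and 145 ± 8.42 units in 20 d and 3 d null, against 116 ± 4.29 and 27.2 ± 2.76 units in 20 d and 3 d wild type.

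For grim only 1 gene exceeded r = 0.9, GstS1, a glutathione S-transferase gene, at 0.929, followed by the transcription factor gene vvl at 0.888 and CG8272 at 0.886. Deviations of grim from the group means correlated with those of these 3 genes at 0.828, 0.806 and 0.686. The 2 arrays of 3 d null with the highest grim, at 99.9 and 106.8 units, also had the highest GstS1 of that group, at 480.3 and 491.4 units against 412.6 to 429.3 units on the other 3. For vvl the same 2 arrays had 209.8 and 262.8 units against 142.5 to 177.4 units on the other 3. The deviations of Dronc and of its 3 most similar genes correlated at 0.503 to 0.768, those of Traf4 at 0.356 to 0.576 and those of egr at 0.001 to 0.523. They correlated at 0.089 to 0.151 for Gadd45 and at -0.319 to 0.02 for Irbp.

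**Figure D5:**
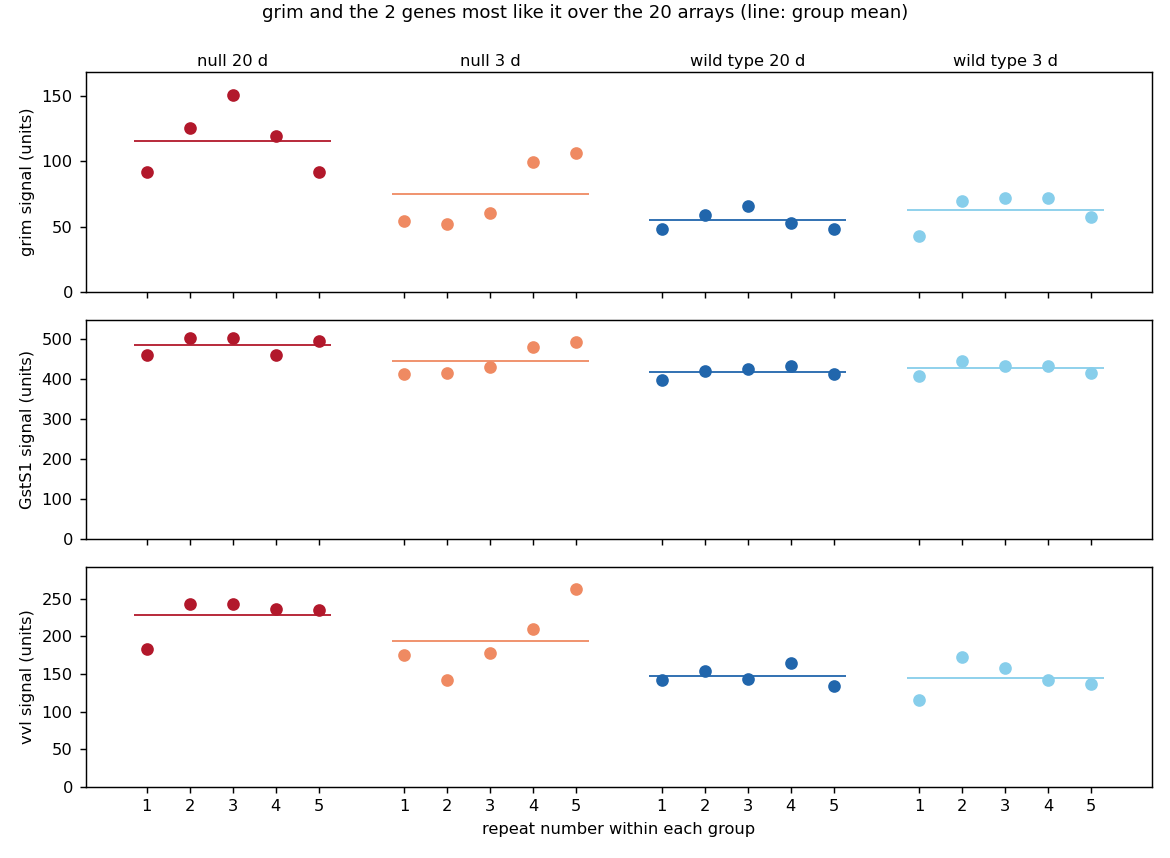
Signal in array units (vertical axes, starting at 0) of grim, GstS1 and vvl on each of the 20 arrays, by group and repeat number (horizontal axis), with lines at the group means. In 3 d null, repeats 4 and 5 are high for all 3 genes, with grim at 99.9 and 106.8 units.

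Among themselves the 6 genes fell apart by array. Gadd45, Irbp and Traf4 correlated with each other at r = 0.892 to 0.923 over the 20 arrays, again through group means, while their deviations from group means correlated at 0.068 to 0.256. grim and Dronc had r = 0.696, and their deviations -0.219.

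The 6 genes lie on 4 chromosome arms, with Gadd45 and egr on 2R, grim and Dronc on 3L, Irbp on 3R and Traf4 on 2L. The nearest tested gene on each side of each, 12 in all, was looked up in gene order after the values of the 6 genes were seen. Of these, 5 were higher and 2 lower in null at 20 d, beside the 20.9% and 24.6% given above. At 3 d 3 were higher and none lower, beside 15.4% and 18.4%. Adk3, the adenylate kinase gene next to Gadd45, was higher in null at 20 d by 0.35 (adjusted p = 4.5e-07 by limma) and had an interaction of 0.39 (adjusted p = 3.85e-05 by limma). On the sides of grim lay skl, with 5 genes between them that were not tested, and CheA75a, which was lower in null at 20 d, with a change of -1.59 (adjusted p = 3.25e-17 by limma), and higher at 3 d by 0.75. Ipo9, an importin gene near Irbp, was higher in null by 0.63 at 20 d and 0.73 at 3 d. CG6674, next to Dronc, was higher by 0.20 and 0.27.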

How the data were processed

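Total RNA of 20 dissected fly brain samples was measured on 1-colour Affymetrix Drosophila 2 arrays. MAS5 and GCRMA are named in the submitters' processing notes, and MAS5 also in the sample descriptions. The authors deposited linear intensity values, from 0.0116 to 4062. After trimming 2% from both ends, the mean was 150.002 when averaged over the 20 arrays, and nothing was rescaled here. Genes were named where the platform annotation gives 1 symbol (13647 of 18952 probe sets, 402 with several and 4720 with none, beside 183 controls). Gene order came from the assembly Release 6 plus ISO1 MT, and no sequences or coordinates are given.

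Signals were analysed as log2(signal + 16). Probe sets above the array median in at least 5 of 20 arrays were kept (9806 probe sets, 7704 genes). All arrays entered 1 limma fit of 4 group means (limma 3.58.1, R 4.3.3, eBayes with trend and robust), with 5 contrasts, Benjamini-Hochberg adjustment per contrast and a threshold of 0.05. The model was tested on simulated data. Arrays of a group were counted by the repeat numbers of the titles. The 6 genes, the pathway lists and the marker lists were chosen with earlier results of these data known. Each listed gene was represented by its probe set of highest mean. In each list and contrast the 3 called genes of largest change could be named, and for each of the 6 genes the 3 genes of highest correlation. Alternatives were pseudocounts of 1 and 64, no filter, quantile normalization, median centring, a replicate block, plain eBayes and leaving out each array.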

Additional observations from a re-analysis of the deposited data

Results flagged for a closer look

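On 2 of 32 combinations of a probe set of the 6 genes and a group, 1 array stood apart by Dixon's criterion, which chance meets in about 1 of 20 groups. For Dronc in 20 d wild type the array of repeat 4, at 55.4 units, took 0.861 of the group's range, and without it the log2 change for null against wild type at 20 d was 0.67 and the interaction 0.28. For Gadd45 in 3 d wild type the array at 44.8 units took 0.713 of the range.

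The interaction was called for all 6 genes, as their choice had fixed. It was 1.00 for Gadd45, 0.71 for grim, 0.34 for Dronc, 0.54 for Irbp, 0.49 for Traf4, and -0.61 and -0.70 for the egr probe sets. For grim the call was lost without the filter and in 14 of the 20 fits that left out 1 array. Among named genes of the pathway lists, the limma interaction was 0.54 for skl, -0.52 for Buffy, -0.31 for Debcl, 0.66 for wnd, 0.43 for p38a and 0.31 for lic. For DNA damage genes it was 0.44 for Irbp18, 0.36 for Ku80, 0.33 for Ercc1 and 0.22 for mre11. The adjusted p of these 10 genes ranged from 9.9e-07 for Irbp18 to 0.0337 for lic, a kinase gene upstream of p38, whose call was lost in 8 of the 20 fits that left out 1 array.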

How the results depend on the processing

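For the 6 genes no call and no direction changed, except the interaction of grim and the wild-type ageing of Dronc described above. Values that moved by over 1.5 times and kept their call included, beside those given above, Traf4 (0.19 at 20 d, 0.19 with age in wild type and 0.24 for the interaction) and Irbp (-0.19 at 3 d) with a pseudocount of 64. They also included Gadd45 with it (1.028 and 0.33 with age in null and wild type) and Dronc after quantile normalization (0.23 with age in null). Over all probe sets median centring gave 3179 called for the interaction, against 1666, and over the 6 lists together 36, against 16. By list, its interaction calls were 17 against 8 for DNA damage and repair, 10 against 5 for the TNF and kinase list, 4 (3 higher, 1 lower) against 2 (both lower) for caspases, 2 against 1 for IAP genes and 3 against none for engulfment. Median centring also left 1 engulfment gene called at 3 d, against 3, and 1 IAP gene at 20 d, against 2. After quantile normalization ageing in wild type had 7 calls in the TNF and kinase list, against 11, and 2 in the engulfment list, against 4. Without the filter, 3 caspase-list genes were called at 3 d, against 5, and 1 engulfment gene, against 3, and the interaction had 1 engulfment gene, against none. The shift in the interaction follows the shift of all probe sets, and its cause was not tested. Leaving out 1 array at a time gave 37 to 41 other pathway genes called for null against wild type at 20 d, 23 to 30 at 3 d, 48 to 51 and 41 to 50 for ageing in null and wild type, and 12 to 17 for the interaction. All probe sets called were 4114 to 4549, 3020 to 3457, 5341 to 5721, 5125 to 5563 and 1473 to 1695 in the same order. With the repeat number as a replicate block, 41, 29, 50, 48 and 16 other pathway genes and 4619, 3463, 5899, 5629 and 1716 probe sets were called, without a change of any call of the 6 genes. Same-numbered arrays of different groups had deviations that correlated at -0.18 to 0.55 (median 0.11, 16 of 30 pairs over 0.1), against -0.59 to 0.40 for other-numbered arrays (median -0.03, 30 of 120 pairs). Of the 20 arrays, 3 were most like their own number in all other groups. The labels give no shared source and not every pair exceeded 0.1, so the main fit did not take the numbers as pairs. Same-numbered arrays nevertheless exceeded 0.1 more often than others, and whether some of them share a source was not tested. Of the alternative values of named pathway genes, 1943 kept their direction and call, 54 lost the call and 1 gained it, and none reversed. Gained was the interaction of drpr, 0.25 after median centring. Signals near background, such as those of Traf4, limit what can be measured.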
